A study of Rattus norvegicus with 12 samples.

Results

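The piRNA makeup of sham-operated rat liver, and its spread between libraries, was described from the 6 small RNA libraries of the group labelled pre_PH, chosen by that label out of the 12 libraries of the series. All 12 came from Fischer-344 rats, an inbred strain. The pre_PH libraries (replicates 1 to 6) were of normal liver after a sham operation, with the labels giving control for both protocol and time. The other 6 were of regenerating liver after partial hepatectomy, with 2 libraries each at 24, 48 and 168 hours. The labels gave no age, and did not say whether the 6 came from separate animals, so the spread between them may be technical. The data name piRNAs only, so the tissue could not be checked against liver genes.

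PIWI-interacting RNAs (piRNAs) are small RNAs, somewhat longer than microRNAs, that guide PIWI proteins. They are best known from the animal germ line, where they silence transposons. Outside the germ line they are usually scarce, and a read is counted as a piRNA there because it matches a catalogued piRNA sequence. The names used here (rno_piR and a number) are catalogue entries, and tell neither a target nor a genomic origin.

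The 6 libraries held 23555129 to 28797822 reads, of which 122699 to 351818 were listed under a piRNA name. The library total was inferred from the authors' counts and percents, and whether it counts raw, trimmed or mapped reads is not given in the sources used here, so every level and share of library reads carries that uncertainty. Levels are given in RPM, reads per 1000000 library reads, which is the authors' percent of all reads times 10000, and spread as the coefficient of variation (CV), the SD over the 6 libraries as a percent of their mean. Where a library did not list a name, its count was set to 0. A count of 0 allows up to 3 reads, or 0.104 to 0.127 RPM at these depths. This limit, and the confidence intervals, cover counting error only. Replicates 1 and 3 stood apart from the other libraries in several abundant names, replicate 1 with low values and replicate 3 with high ones. For means and CVs that moved by over 1.5 times without 1 of them, the values without it are given too.

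Sham liver gave few piRNA reads, and their amount varied more than sequencing depth did. Listed piRNA reads made up 0.713% ± 0.296 (SD, n = 6) of library reads. The lowest share was 0.478% in replicate 1 (95% Wilson interval 0.475 to 0.481%), the median 0.586% and the highest 1.25% in replicate 3 (1.249 to 1.257%). The CV of that share was 41.5%, against 7.88% for the library totals themselves. Replicates 3 and 4 (0.858%) were the highest, and the other libraries lay between 0.478% and 0.611%. Without replicate 3 the mean share was 0.606% ± 0.149 (SD, n = 5) and its CV 24.7%, still above the 8.38% of the library totals. In bulk tissue, fewer cells that hold an RNA and less of it per cell cannot be told apart.

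A total of 379 piRNA names were listed in sham liver, of 701 in the whole series. The number per library ran from 129 in replicate 2 to 216 in replicate 5, with a mean of 164 ± 32.0 (SD, n = 6). At an equal 122699 piRNA reads, the expected number was 111 in replicate 3, 114 in replicate 4, 129 in replicate 2, 155 in replicate 1, 162 in replicate 6 and 193 in replicate 5. Replicate 3, which had the most piRNA reads, thus had the fewest expected names at equal depth, and replicate 5 the most. Names with at least 10 reads were a much steadier set of 51 ± 5.29 per library (range 46 to 61).

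Detection split the names into a small set that was always found and a long list that was rarely found. In all 6 libraries 71 names were found, and they held 99.9% of the piRNA reads. Another 16 names were found in 5 libraries, 25 in 4, 27 in 3, 55 in 2 and 185 in 1 only. The 185 had 276 reads between them, no more than 6 for any name, and 123 of them rested on 1 read in all. Names at this depth can differ between libraries by counting alone, so a name missing from a library was not shown to be absent from it. Of the 71 names found in every library, 38 had at least 10 reads in each, and 17 had a mean of under 10 reads.

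Most names of sham liver were also seen after hepatectomy. Of the 71 names found in every sham library, 61 were found in each of the other 6 libraries too. Sham liver held 101 names listed in no other library, but each of these had at most 4 reads in all and was found in at most 3 sham libraries. Together the 101 made up 0.0136% of sham piRNA reads, and 61 of them rested on 1 read.

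Among the names missing from at least 1 library, the highest mean was that of rno_piR_010458. It had 8, 10, 4, 0, 15 and 3 reads in replicates 1 to 6. The next 4 were rno_piR_028365 (0 to 8 reads), rno_piR_025774 (0 to 8), rno_piR_008114 (0 to 14) and rno_piR_007046 (0 to 12). Each of these 5 averaged under 7 reads a library. Apart from rno_piR_028365, which was highest in replicate 2, they were highest in replicate 5, the library with the most names.

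**Figure D1:**
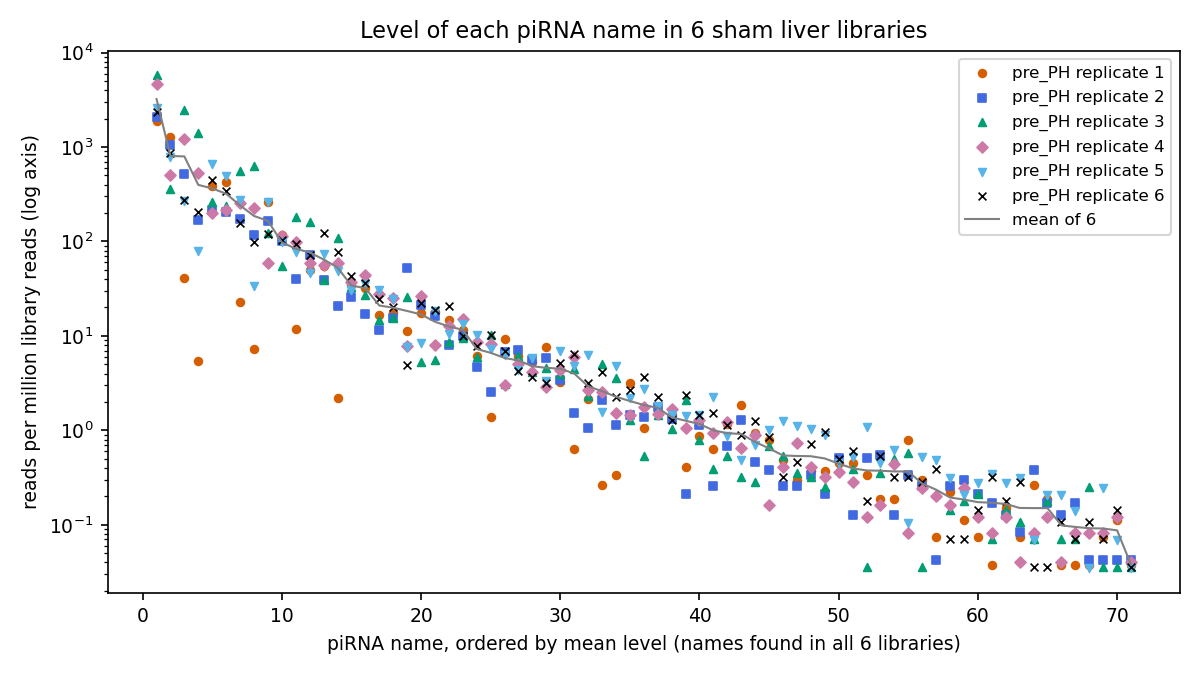
Level in RPM (log axis) of the 71 piRNA names found in all 6 sham liver libraries, ordered by their mean, with 1 symbol per library and a line for the mean. The 6 libraries follow the same descent, and replicate 1 lies far under the line for several names among the first 14.

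A few names carried nearly all piRNA reads. The most abundant, rno_piR_000685, ranked first in all 6 libraries, with a lowest level of 1877 RPM in replicate 1, a median of 2477 and a highest of 5736 in replicate 3 (3224 ± 1600.4, SD, n = 6). Its share of piRNA reads was 44.0% ± 5.79, from 39.3% in replicate 1 (95% Wilson interval 39.0 to 39.5%) to 54.8% in replicate 4 (54.6 to 55.1%). By itself it held over 50% of piRNA reads in replicate 4, and in the other 5 libraries that library's 2 most abundant names together passed that mark. For any other share of piRNA reads given for a single library, the Wilson interval reached at most 0.274 percentage points to either side. The 10 most abundant names held 92.0% ± 2.14, and between 18 and 29 names were enough for 99% of piRNA reads.

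Below the first place the order was loose. Only 5 names stood among the 10 most abundant of every library, namely rno_piR_000685, rno_piR_004288, rno_piR_005556, rno_piR_005900 and rno_piR_005901, and 14 names appeared in at least 1 of the 6 lists. The rank of rno_piR_004288 ran from 2 to 6, that of rno_piR_005556 from 2 to 9, and those of rno_piR_005901 and rno_piR_005900 each from 3 to 8. The widest span among the 10 was that of rno_piR_005787, which ranked 3 in its best library and 26 in its worst. For rno_piR_000030 the ranks ran from 4 to 23. Lower in the list, rno_piR_000562 kept to ranks 19 to 23 and rno_piR_001415 to ranks 27 to 31.

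Over the names found in every library, the order was nevertheless much alike between libraries. Across the 71 names found in all libraries, Spearman's rho between 2 libraries lay between 0.897 and 0.974 over the 15 pairs, as a description across names, which are not replicates. Over the 31 names with a mean of at least 100 reads, the pairs ran from 0.559 (replicates 1 and 3) to 0.969 (replicates 5 and 6). The 5 pairs with replicate 1 were the 5 lowest, at 0.756 or less, and the other 10 were at 0.890 or more. The 31 names span fewer orders of magnitude than the 71. The cause of the lower values in the pairs with replicate 1 was not tested.

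The spread of single names was examined in these 31, where counting error alone would give a CV of at most 10%. Their observed CV ran from 16.9% to 131%, with a median of 42.1%. A name was called stable at a CV under 30% and variable at a CV over 80%. By this rule 8 names (25.8% of the 31) were stable, 4 (12.9%) were variable and 19 lay between. Just inside and just outside the lower limit were rno_piR_032799 (28.7%) and rno_piR_005593 (30.3%), and no name lay between rno_piR_008639 (75.1%) and rno_piR_000552 (99.9%) at the upper one. A dispersion index, the chi-square of a name's reads against equal RPM over its degrees of freedom, would be about 1 for counting error alone. It was 4.59 or more in all 31 names, so the stable names too varied by more than counting error. For the most abundant name it was 21261.

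**Figure D2:**
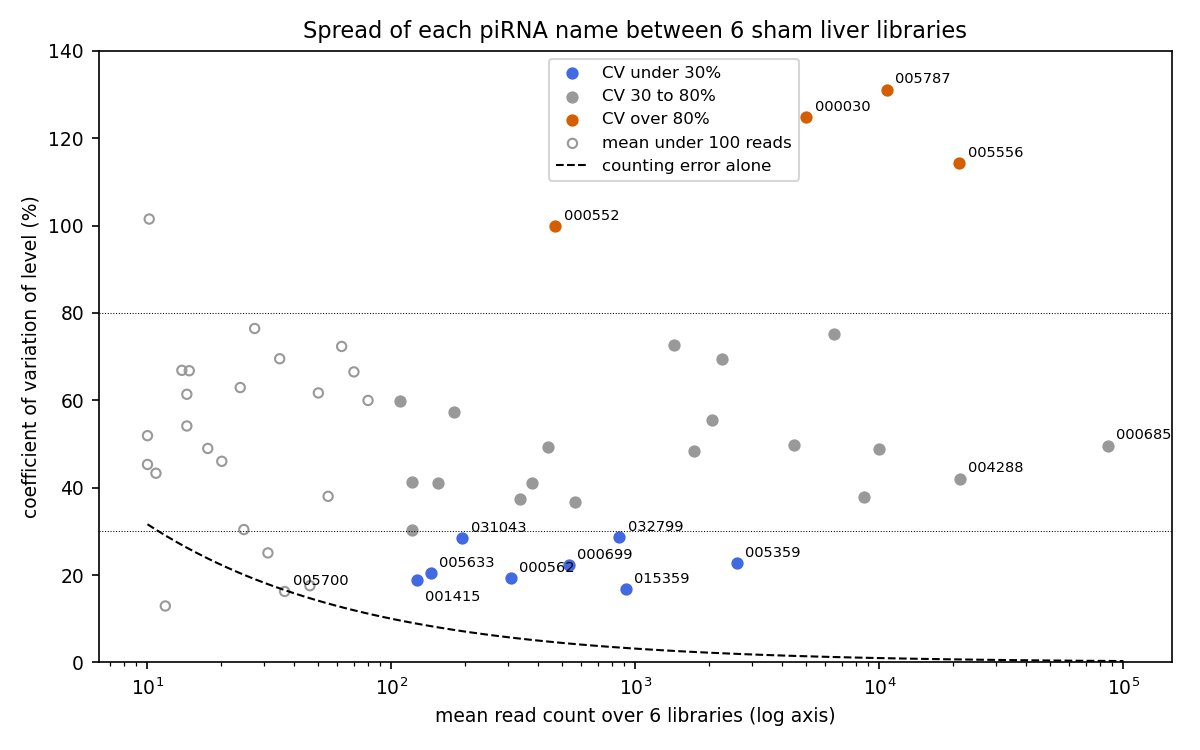
Coefficient of variation of the level over 6 sham libraries against the mean read count (log axis), 1 point per name with a mean of at least 10 reads, labelled with the last 6 digits of the name. Filled points are the 31 names with a mean of at least 100 reads, coloured by class, the dashed curve is counting error alone and dotted lines mark 30% and 80%. The 4 variable names reach 99.9% to 131%, and the 8 stable names lie between 16.9% and 28.7%.

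The lowest CV over the 6 libraries was that of rno_piR_015359. Its level was 26.0 RPM in replicate 2 at the lowest, 34.0 at the median and 42.7 in replicate 6 at the highest (34.1 ± 5.75, SD, n = 6, CV 16.9%). The next was rno_piR_001415, with 3.67, 4.73 and 5.87 RPM as lowest, median and highest (CV 18.8%). It was followed by rno_piR_000562, at 9.61, 10.8 and 15.2 RPM (CV 19.2%). In these 3 names no library stood apart, and the highest value was at most 1.64 times the lowest.

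Of the other stable names, rno_piR_005633 ranged from 4.24 to 7.09 RPM (CV 20.5%) and rno_piR_000699 from 15.6 to 25.4 RPM (CV 22.3%). The only stable name among the 10 most abundant was rno_piR_005359. In 5 of its libraries it lay between 98.3 and 116 RPM, and in replicate 3 at 55.2 RPM (98.1 ± 22.3, CV 22.8%). Without replicate 3 its CV was 7.89%, the lowest of the 31 names, against 18.7% for rno_piR_015359. The last were rno_piR_031043 (4.67 to 10.3 RPM, CV 28.4%) and rno_piR_032799 (17.2 to 43.9 RPM, CV 28.7%), both lowest in replicate 2. The class of these last 2 depended on single libraries. It was lost for rno_piR_031043 without replicate 4 or 6 and for rno_piR_032799 without replicate 1, 5 or 6, while the other 6 kept it with any library left out. Together the 8 stable names held 3.39% of piRNA reads on average, from 1.25% in replicate 3 to 4.79% in replicate 1.

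What counted as stable depended on the denominator. Measured as a share of piRNA reads instead of library reads, only 2 of the 31 names had a CV under 30%, and neither was among the 8. These were rno_piR_000685, whose CV was 13.2% by piRNA reads and 49.6% by library reads, and rno_piR_025314, at 27.4% and 55.6%. As rno_piR_000685 itself made up 39.3% to 54.8% of piRNA reads, it is a large part of that denominator, which limits how far its share can vary. The 55.6% of rno_piR_025314 rested on replicate 3, at 160.4 RPM against 46.0 to 72.1 in the others. Without replicate 3 its CV by library reads was 20.2%. The CV of rno_piR_015359 was 35.1% as a share of piRNA reads. With TMM scaling, which evens out the typical name, 11 names were stable, 7 of them among the 8. With DESeq2 size factors 9 were stable, with the same 7 of the 8. The name of the 8 that both scalings dropped was rno_piR_005633, at 32.6% with TMM scaling and 36.3% with DESeq2 size factors. No name was stable by all 4 measures.

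The 4 variable names were rno_piR_005787, rno_piR_000030, rno_piR_005556 and rno_piR_000552, and 3 of them were among the 10 most abundant. The level of rno_piR_005787 was 5.47 RPM in replicate 1, 169 in replicate 2, 1395 in replicate 3, 531 in replicate 4, 78.9 in replicate 5 and 205 in replicate 6 (397 ± 521, SD, n = 6, CV 131%). This was a span of 255 times, from 146 reads to 39167. Replicate 1 was at 0.0694 of the next lowest library, and replicate 3 lay more than 2 times above the next highest. Without replicate 3 its mean was 198 ± 202 RPM (SD, n = 5).

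The same libraries were lowest and highest for the next 2 names. For rno_piR_000030 the lowest, median and highest levels were 7.24, 108 and 635 RPM (186 ± 233, CV 125%). For rno_piR_005556 they were 40.6, 398 and 2457 RPM (796 ± 909, CV 114%). Without replicate 3 the means were 96.7 ± 86.1 and 463 ± 452 RPM (SD, n = 5). The fourth, rno_piR_000552, had another pattern, with 52.6 RPM in replicate 2, 25.8 in replicate 3 and 4.92 to 11.4 in the other libraries (18.4 ± 18.4, CV 99.9%). Without replicate 2 its CV was 72.0%, under the limit. For the other 3 variable names the CV stayed over 80% with any library left out, and for rno_piR_005787 it was 114% without replicate 1 and 102% without replicate 3. By all 4 measures of level, 3 names were variable, namely rno_piR_005787, rno_piR_000030 and rno_piR_000552. The CV of rno_piR_005556 was 77.8% as a share of piRNA reads.

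Next below the limit came rno_piR_008639 (22.8 to 564 RPM, CV 75.1%), rno_piR_008174 (2.17 to 109 RPM, CV 72.6%) and rno_piR_000119 (11.8 to 181 RPM, CV 69.5%). All 3 were lowest in replicate 1 and highest in replicate 3. The eighth most variable was rno_piR_000965, at 0.637 RPM in replicate 1 and 1.53 to 6.49 in the others (CV 59.8%). With TMM scaling and with DESeq2 size factors, rno_piR_008639, rno_piR_008174 and rno_piR_000119 passed the limit of 80% as well.

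**Figure D3:**
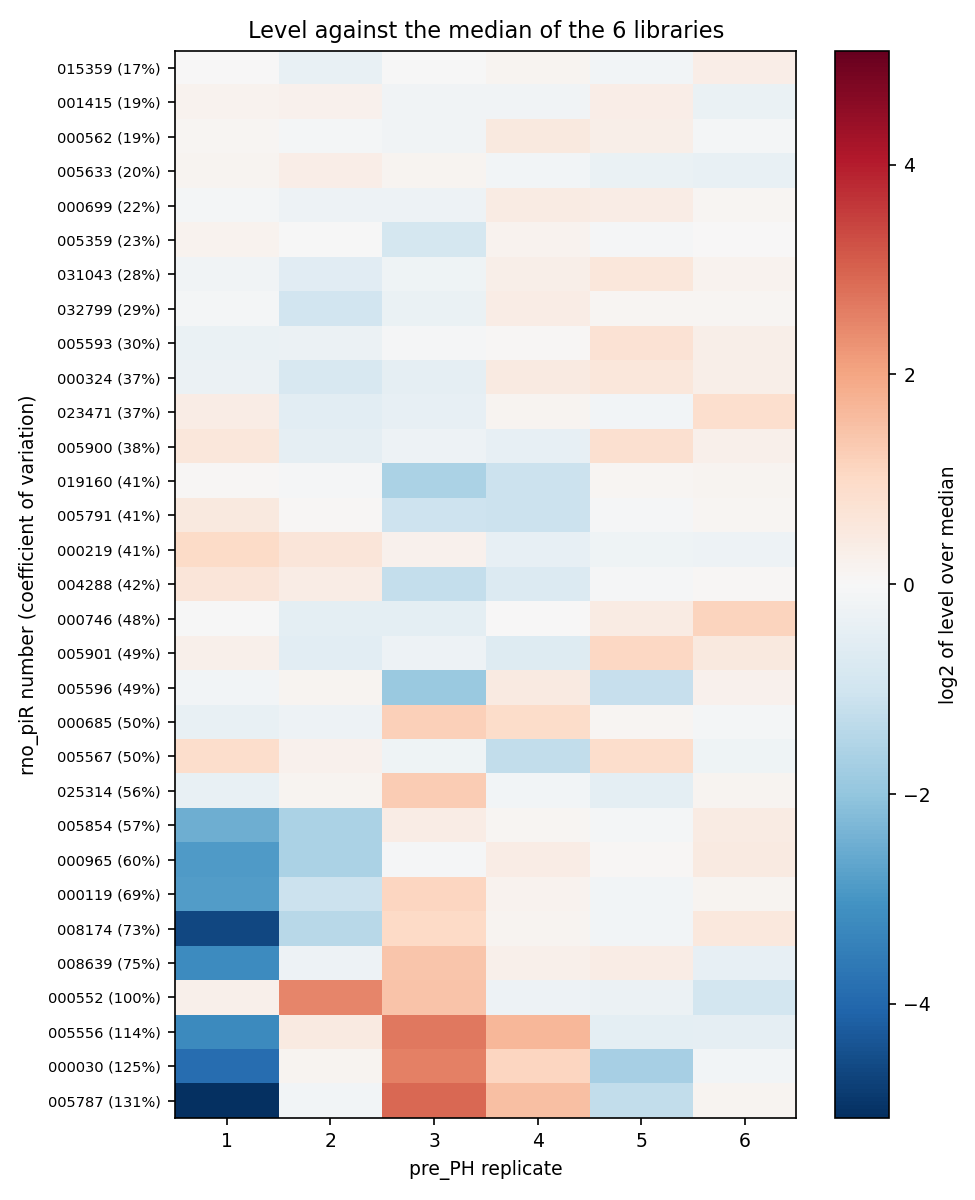
Level of each of the 31 names with a mean of at least 100 reads in each sham library, as log2 of the level over the median of the 6 libraries, with rows ordered by coefficient of variation and labelled with the last 6 digits of the name. The rows at the bottom, apart from that of rno_piR_000552, are low in replicate 1 and most of them high in replicate 3, and the rows at the top are pale throughout.

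Replicate 1 was the lowest library for 10 of the 31 names and the highest for 5. In 7 of the 31 names its level was under 0.5 of the next lowest library, whereas this happened for 1 name in replicate 4 and for none in the others. The 7 were rno_piR_005787, rno_piR_008174, rno_piR_008639, rno_piR_005556, rno_piR_000030, rno_piR_000119 and rno_piR_000965. Replicate 3 was more than 2 times above the next highest library in 5 names, which were rno_piR_005556, rno_piR_005787, rno_piR_008639, rno_piR_000030 and rno_piR_025314. Replicate 2 was so for rno_piR_000552 alone, and the other libraries for none.

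Among the names in which replicate 1 was under 0.5 of the next lowest library, 6 were also highest in replicate 3. These were rno_piR_005556, rno_piR_005787, rno_piR_008639, rno_piR_000030, rno_piR_000119 and rno_piR_008174. Grouped after their values were seen, the 6 took very different parts of the libraries. Summed, they had 90.0 RPM in replicate 1, 1043 in replicate 2, 5339.5 in replicate 3, 2384 in replicate 4, 778 in replicate 5 and 909 in replicate 6. That was 1.88% of piRNA reads in replicate 1 and 42.6% in replicate 3. All remaining names together made up 0.538% ± 0.113 (SD, n = 6) of library reads, with a CV of 21.0%, or 15.5% without replicate 3. They include rno_piR_000685, which was also lowest in replicate 1 (1877 RPM) and highest in replicate 3 (5736 RPM). Its level in replicate 1 was close to the next lowest, 2072 RPM in replicate 2, so it was not among the 6. Since the 6 were grouped for being far the lowest in replicate 1 and highest in replicate 3, a smaller spread of the rest follows from the grouping.

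Other abundant names ran the opposite way. The level of rno_piR_004288 was 1272 RPM in replicate 1, 1052 in replicate 2, 357 in replicate 3, 507 in replicate 4, 784 in replicate 5 and 856 in replicate 6 (805 ± 338, CV 42.1%). Its share of piRNA reads was 26.6% in replicate 1 and 2.85% in replicate 3. The level of rno_piR_005567 had its highest value in replicate 1 too (265 RPM) and its lowest in replicate 4 (59.3 RPM, 165 ± 82.4, CV 49.9%).

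**Figure D4:**
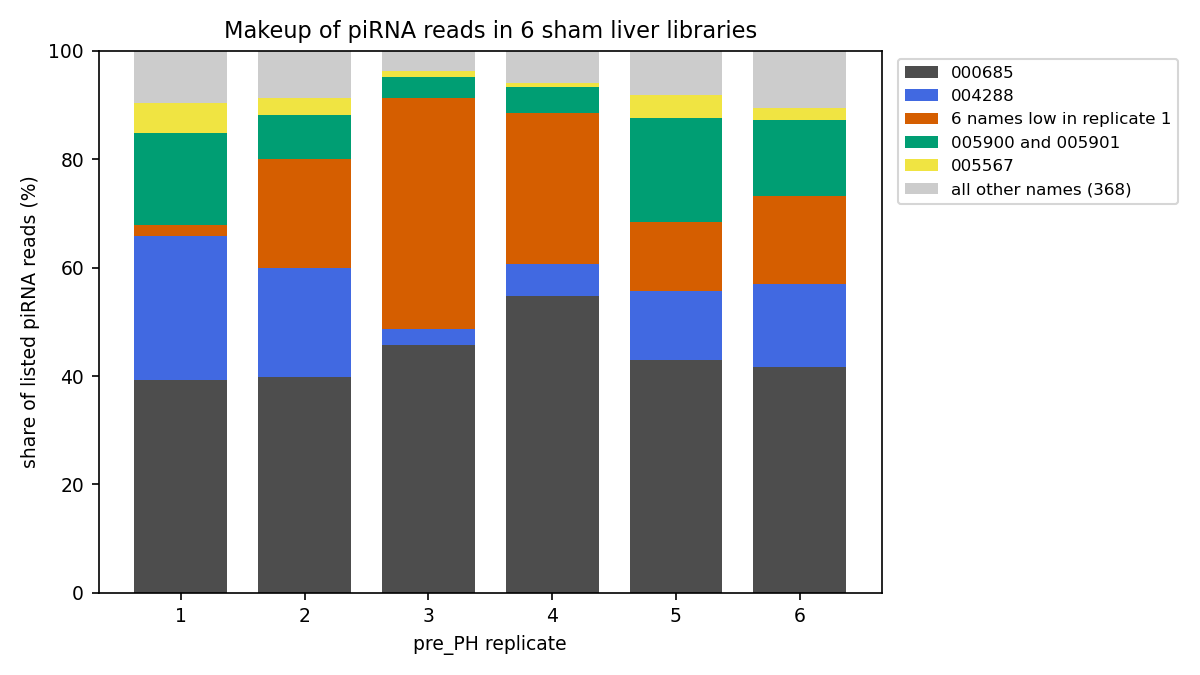
Share of listed piRNA reads (percent, stacked to 100) in each of the 6 sham libraries held by rno_piR_000685, rno_piR_004288, the 6 abundant names low in replicate 1, the pair rno_piR_005900 and rno_piR_005901, rno_piR_005567 and the 368 other names. The 6 names take 1.88% in replicate 1 and 42.6% in replicate 3, and rno_piR_000685 takes 39.3% to 54.8%.

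Most of the variation in level lay between names, not between libraries. For the 31 names on the log2 RPM scale, differences between names made up 86.1% of the total sum of squares, differences of all names together between libraries 1.61%, and the remainder, names that shifted differently, 12.3%. Replicate 1 held 44.9% of that remainder and replicate 3 held 26.0%, against 5.53% to 10.0% for each of the other libraries. Without replicate 1 the remainder was 6.92% of the total, without replicate 3 it was 10.8%, and without replicates 1 and 3 it was 5.41%. Over the 71 names found in all libraries the parts were 94.5%, 0.472% and 5.02%, with 32.4% of the remainder in replicate 1, 24.2% in replicate 3 and 9.66% to 12.3% in each of the others.

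Ratios between names, which do not depend on any denominator, singled out pairs that kept together. Among the 190 pairs of the 20 most abundant names, the median SD of the log2 ratio over the 6 libraries was 1.35. It was smallest, 0.23, for rno_piR_005901 and rno_piR_005900, whose ratio of reads lay between 0.911 and 1.35 with a median of 1.09. Both were lowest in replicates 2 and 4 and highest in replicate 5, at 669 and 495 RPM. The next 3 pairs all came from rno_piR_032799, rno_piR_000324 and rno_piR_000699, with SDs of 0.25, 0.28 and 0.28. The ratio of rno_piR_032799 to rno_piR_000324 lay between 1.17 and 1.91.

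The least steady ratios involved rno_piR_005787. Its ratio to rno_piR_005567 ranged from 0.0207 to 11.5, with an SD of 3.38 on the log2 scale. The ratio of rno_piR_004288 to rno_piR_005787 ranged from 0.256 to 232, with an SD of 3.34. How reads that match several names were assigned is not given in the sources used here, so that names with shared sequence could share or split reads, and such pairs cannot be told from pairs of separate RNAs.

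The number of distinct read sequences behind a name told the names apart in another way. In every library rno_piR_005901 rested on 1 distinct sequence, with 5002 to 19273 reads. It was the only name with at least 100 reads in all that was so in every library where it was found. Its companion in the ratio, rno_piR_005900, rested on 80 to 108 distinct sequences with 4881 to 14263 reads. For rno_piR_000685 the number was 86 to 91 at 48798 to 161081 reads, and for rno_piR_004288 it was 25 to 30 at 10016 to 33934 reads. For rno_piR_000685 the number was 91 both at its lowest count, 48798 reads, and at its highest, 161081 reads. In rno_piR_004288 higher counts came with few further sequences. In others they came with more, as in rno_piR_025314, with 41 distinct sequences at 1331 reads and 85 at 4505.

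The names with the most reads per distinct sequence, pooled over the libraries, were rno_piR_005901 (9948), rno_piR_000685 (956), rno_piR_004288 (770) and rno_piR_005556 (330). In each single library the first 3 were among the 4 highest of the 31 names, but rno_piR_005556 was so in 3 libraries, ranging from 18.1 in replicate 1 to 1045 in replicate 3, and its pooled value without replicate 3 was 183. Those with the fewest among the 31 were rno_piR_005854 (4.0), rno_piR_000965 (4.57), rno_piR_001415 (6.80) and rno_piR_031043 (8.82). Across the 31 names, the summed numbers of reads and of distinct sequences had a Spearman's rho of 0.576, given as a description. The largest number for any name in any library was 120, for rno_piR_005787 in replicate 3. In replicate 1 this name still had 58 distinct sequences among its 146 reads.

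Summed over all names, the libraries held 1192 (replicate 1) to 1719 (replicate 5) distinct sequences. For rno_piR_000685 the range of 86 to 91 distinct sequences stood beside a span of 3.06 times in RPM, so that the number of sequences is no measure of its level.

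**Figure D5:**
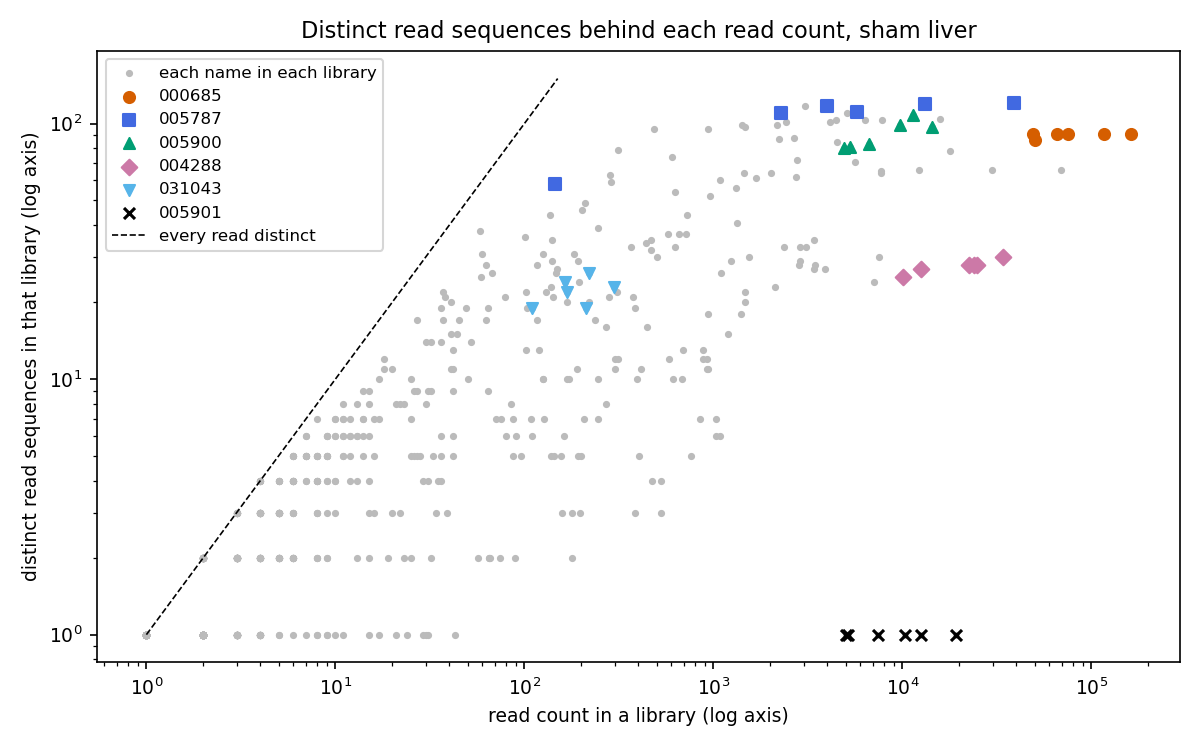
Distinct read sequences against read count, both on log axes, for each name in each sham library, with 6 names marked by the last 6 digits of the name. The points of rno_piR_005901 lie at 1 distinct sequence for 5002 to 19273 reads, and those of rno_piR_000685 at 86 to 91 for 48798 to 161081 reads.

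Below a mean of 100 reads, some names varied no more than counting error allows. Of the 9 names with a mean of 30 to 100 reads, 2 had a dispersion index under 2. For rno_piR_005700, with 39, 31, 29, 42, 42 and 36 reads in replicates 1 to 6, it was 0.967. For rno_piR_000753, with 42, 42, 41, 37, 52 and 64 reads, it was 1.47. At a mean of 10 to 30 reads 3 of 14 names were under 2, and the lowest was rno_piR_008479 (0.190, with 9 to 14 reads). These were named after their values were seen, and at such counts a difference between libraries was not detectable unless it was large. The other 7 names with a mean of 30 to 100 reads varied more. Their highest CVs were those of rno_piR_005608 with 9 to 137 reads (CV 72.3%), rno_piR_005604 with 5 to 67 (CV 69.5%) and rno_piR_000216 with 7 to 140 (CV 66.5%). Of the 7, only rno_piR_005608 and rno_piR_000216 were lowest in replicate 1, and rno_piR_005604 was lowest in replicate 2.

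A set of 4 relations between measures of the libraries was tested over the 6, each by an exact two-sided permutation test over 720 pairings, adjusted over the 4. The labels gave no batch within which to repeat them. Libraries with more reads in all listed more names, with Pearson's r = 0.915 (exact p = 0.00833, adjusted p = 0.0333) and Spearman's rho = 0.943 (exact p = 0.0167, adjusted p = 0.0333). Without replicates 2 and 4, the libraries farthest from the median total, r was 0.865. The number of names was not shown to follow the number of piRNA reads (r = 0.170, exact p = 0.710, adjusted p = 0.710, rho = 0.371, exact p = 0.497, adjusted p = 0.497). Without replicates 3 and 4 that r was 0.953, so its value rests on those libraries.

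The share of rno_piR_000685 among piRNA reads was set against the share of piRNA reads in the library. Pearson's r was 0.575 and did not pass (exact p = 0.196, adjusted p = 0.261), while Spearman's rho was 0.943 and did (exact p = 0.0167, adjusted p = 0.0333). Without replicates 3 and 4 r was 0.979. Reads of rno_piR_000685 enter both measures, so the relation is not between independent quantities. For the number of names at equal depth against the piRNA share, r was -0.629 (exact p = 0.174, adjusted p = 0.261) and rho was -0.486 (exact p = 0.356, adjusted p = 0.474), and neither passed. Without replicates 3 and 4 its r was 0.735, of opposite sign, so the relation rests on those libraries.

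The spread of sham liver was set beside that of the replicates after hepatectomy, without a test. For 2 libraries the SD of the log2 ratio of RPM over the 31 names measures how far they differ in makeup. Among the 15 pairs of sham libraries it ran from 0.66 (replicates 5 and 6) to 2.69 (replicates 1 and 3), with a median of 1.31. It was 0.72 between the 2 replicates at 24 hours, 1.13 at 48 hours and 1.22 at 168 hours, all within the range of the sham pairs. The 31 names were chosen by their sham counts.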

How the data were processed

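Small RNA of 12 rat liver libraries was sequenced (TRIzol extraction, Illumina TruSeq small RNA kit and HiSeq, per the labels' protocols), and the 6 pre_PH libraries were used. The deposited read count and the deposited count of distinct read sequences per piRNA name are raw, unscaled whole numbers. Per the file headers, the authors' 2 percent columns refer to the whole library and to its reads mapped to piRNAs. The ratio of count to percent gave 1 constant per library, taken as its total. Listed names held 99.8% to 99.9% of the reads mapped to piRNAs. CASAVA 1.8, cutadapt, DESeq 1.14.0 and build rn4 are named in the submitters' processing notes, with no role. The aligner, mismatches and length filter, and whether other small RNAs were removed first, were not given in these sources. Sequences of the piRNAs were not used here.

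Means, SDs and CVs were computed in Python 3.11.15 over the 6 libraries, scaling factors with edgeR 4.0.16 (TMM) and DESeq2 1.42.0. Names at equal depth are exact hypergeometric expectations. The CV and depth functions were tested on simulated data. With 1 group there was no test between groups. Named piRNAs were the 10 most abundant, the 8 lowest and 8 highest CVs at a mean of at least 100 reads, the 5 most abundant missing from a library, the 4 with most and 4 with fewest reads per distinct sequence, the 4 steadiest and 2 least steady pairs among the 20 most abundant, and up to 8 with a library apart by Dixon's criterion. Other names are marked as chosen after seeing values, or illustrate a count. The rules and lists were chosen with earlier results of these data known. Alternatives were other denominators, count minimums of 30 and 300 reads, distinct sequences, subtraction of counting variance, and each library left out. No 2 libraries agreed within sampling noise (chi-square per degree of freedom at least 120.1).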

Additional observations from a re-analysis of the deposited data

Results flagged for a closer look

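Dixon's criterion for a sample far from the others at the 95% level was applied to library measures and named piRNAs. It marked 4 of 34 sets of 6 values, and also rno_piR_025314, which was named because it met the criterion and is not counted. Many of the named piRNAs were chosen for a wide spread or for being missing from a library. The 4 therefore cannot be set against the rate of about 1 in 20 that chance gives. Among all 31 names with a mean of at least 100 reads the criterion marked 3. The level of rno_piR_000030 was 635 RPM in replicate 3, against 7.24 to 228 in the other libraries. That of rno_piR_025314 was 160.4 RPM in replicate 3, against 46.0 to 72.1. That of rno_piR_005359 was 55.2 RPM in replicate 3, against 98.3 to 116, so this library was high in the first 2 and low in the third. At low counts, rno_piR_008114 was at 0.486 RPM (14 reads) in replicate 5, against 0 to 4 reads elsewhere. In the same library rno_piR_007046 was at 0.417 RPM (12 reads), against 0 to 4 reads.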

How the results depend on the processing

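With each library left out in turn, the mean piRNA share of library reads was 0.606 to 0.761%, the names per library 153 to 171, the names found in all libraries 72 to 76, the share of the 10 most abundant 91.5 to 92.8%, the stable names 7 to 10, the variable names 3 to 6 and the median CV 36.0 to 46.5%. A minimum of 10 reads left 51 names per library and 38 in all 6. Stable names numbered 2 as a share of piRNA reads, 5 at a mean of at least 300 reads, where only 23 names were considered, and 26 with distinct sequences. Variable names numbered 7 with TMM scaling, 7 with DESeq2 size factors and 0 with distinct sequences. The median CV was 55.2% as a share of piRNA reads, 47.3% with DESeq2 size factors, 48.8% at a mean of at least 300 reads and 15.3% with distinct sequences. Of the relations, that of the piRNA share to rno_piR_000685 passed with Spearman's rho (0.943), and that of the piRNA share to names at equal depth turned to 0.735 without replicates 3 and 4. The cause of these shifts was not tested. No paired analysis was possible because only 1 group was described. The number of distinct sequences hardly moves with the reads of some abundant names, and its values say nothing of how stable their levels were.

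Depth limits the rare names: a name expected at 3 reads or fewer can be missed by counting alone.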
